A study of Mus musculus with 12 samples.

Results

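The AP-1 and ATF3 transcription factors are a set of 9 genes, namely Fos, Fosb, Fosl1, Fosl2, Jun, Junb, Jund, Atf3 and Maff. They were followed in mouse hippocampal CA1 tissue after forebrain ischemia. Members were chosen by name: every probe set, a group of short array probes for a transcript, whose only gene symbol in the platform annotation was one of the 9. This gave 11 of the 22626 probe sets tested, with 2 each for Fosl1 and Jun, and 9 of the 12393 genes with a probe set of their own. All 11 are described here, and no filter on low values was applied. The study combined 2 surgeries with 2 genotypes on 12 Affymetrix arrays. The groups were SUMO-KD ischemia, SUMO-KD sham, wild-type ischemia and wild-type sham, with 3 samples each. Ischemia lasted 10 minutes and was followed by 3 hours of reperfusion, and each sample pooled CA1 tissue of 2 mice. SUMO-KD mice are transgenic animals in which the small ubiquitin-like modifier SUMO is knocked down, and wild-type mice are their comparison. The promoter of the transgene, the SUMO genes it targets, the number of founder lines and the age of the animals are not given in the sources used here.

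AP-1 is a dimer of basic leucine zipper (bZIP) proteins. Jun proteins pair with each other or with Fos proteins, and the dimer binds the TGANTCA sequence in promoters and enhancers. In neurons Fos, Fosb and Junb are immediate early genes, which are switched on within minutes of strong activity or calcium entry without new protein synthesis. Atf3 is a bZIP factor of the ATF/CREB family that is nearly silent in healthy neurons and is induced by injury and stress, and Maff is a small Maf protein that has a leucine zipper but no activation domain. Fos and Jun proteins are known substrates of SUMO attachment, which lowers AP-1 activity. The measurements here are of mRNA and do not show protein or its modification.

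Promoter sequences are shown because members that moved together may be compared by the sites they carry. The 250 bases before each annotated start were taken from RefSeq (build GRCm38.p6), in which 8 of the 9 genes were matched. The stretches below end at the base before the start and are written on the strand of the gene, 5′ to 3′. Capitals mark matches on either strand to the cAMP response element (CRE, TGACGTCA), the short CRE TGACG or the TATA box TATAAA. The short CRE lies within the full CRE by construction, and it was added after the sequences were seen. Fos, Fosb, Atf3 and Maff carry a match in the stretch shown, and Jun, which also rose, carries none.

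Fos, chr12:85473790-85473889, plus strand: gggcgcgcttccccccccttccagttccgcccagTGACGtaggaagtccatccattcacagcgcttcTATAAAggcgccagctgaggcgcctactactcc

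Fosb, chr7:19310046-19310145, minus strand: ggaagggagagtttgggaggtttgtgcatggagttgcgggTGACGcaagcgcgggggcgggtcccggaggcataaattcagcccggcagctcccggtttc

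Atf3, chr1:191183334-191183433, minus strand: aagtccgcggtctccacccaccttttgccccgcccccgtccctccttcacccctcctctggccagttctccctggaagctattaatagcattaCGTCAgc

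Jun, chr4:95052223-95052322, minus strand: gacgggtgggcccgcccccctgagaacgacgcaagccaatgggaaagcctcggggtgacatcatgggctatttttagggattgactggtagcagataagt

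Maff, the second of its 3 annotated starts, chr15:79347490-79347519, plus strand: gTGACGTCActgcatgactgggtttttatg

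The short CRE lay in the 250 bases before at least 1 start of 5 matched members (Fos, Fosb, Junb, Atf3 and Maff), while 19.8% of the 27025 genes in the promoter table carried it before at least 1 start. In Fos it lay at −129 to −125 and at −66 to −62 from the start, in Fosb at −60 to −56, in Junb at −106 to −102 and in Atf3 at −7 to −3. The full CRE was found in Maff alone among the 8, at −29 to −22, and before a start of 1.77% of all genes. The AP-1 site TGANTCA and the CArG box, the binding site of serum response factor, were in 0 of these windows and before 7.82% and 1.62% of all genes. A match is a description of letters in this window only, and sites farther upstream, of Fos or any other member, were not searched. Fosl2, Jun and Jund held 0 of the motifs searched.

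The deposited values are linear intensities scaled per array. The share of probe sets dimmer than 32, the offset added before taking log2, was between 22.5% and 28.6% on each array. Sumo3, which encodes a SUMO protein, had an intensity after ischemia of 1908 ± 28.3 in SUMO-KD and 3400 ± 140 in wild-type samples, and in sham of 1560 ± 194 in SUMO-KD and 2343 ± 113 in wild-type samples (mean ± SD, n = 3 each). It was lower in SUMO-KD than in wild-type in both surgeries (limma adjusted p = 0.00241 after ischemia and 0.0151 in sham). A second Sumo3 probe set was dim, with group means below 5, and did not pass (adjusted p = 0.724 after ischemia and 0.901 in sham). Of 3 SUMO genes listed, 1 (Sumo3) had a probe set of its own, and the others are not described here. The array control for 18S ribosomal RNA moved with surgery: its 3′ probe set read 2829 to 4127 on 5 of the 6 ischemia arrays against 5087 to 7569 on the sham arrays, and its 5′ probe set 1275 to 1660 against 4194 to 6528. The part of this RNA sign in the ischemia results was not tested. SUMO-KD ischemia replicate 2 stood apart from the other ischemia arrays, with 6316 at the 3′ and 4127 at the 5′ probe set, and in S100a8, a neutrophil marker, with 704.6 against 134.8 and 158. Of 8 CA1 pyramidal markers 5 had a probe set of their own, and Wfs1, Pou3f1, Man1a and Itpka were above 700 on every array, while Camk2a was below 81 on every array. Summed over these 5, the intensity after ischemia was 3996 to 4963 in SUMO-KD and 4364 to 5893 in wild-type samples, and in sham 4177 to 5121 in SUMO-KD and 7089 to 9544 in wild-type samples. Choroid plexus markers were present and uneven between arrays: Ttr ranged from 14655 to 24136, Folr1 from 73.45 to 1247, Kcne2 from 28.2 to 465.9, Otx2 from 27.3 to 640.7 and Kl from 187 to 1316. By these markers the tissue held more than CA1 pyramidal cells. The sum of 5 dentate granule markers was 2083 to 2517 in SUMO-KD ischemia against 3486 to 4630 in SUMO-KD sham samples. In wild-type it was 2246 to 2428 in ischemia against 2605 to 4090 in sham samples. Prox1, 1 of the 5, had group means from 50.1 to 138, and the sum alone does not show dentate tissue.

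**Figure D1:**
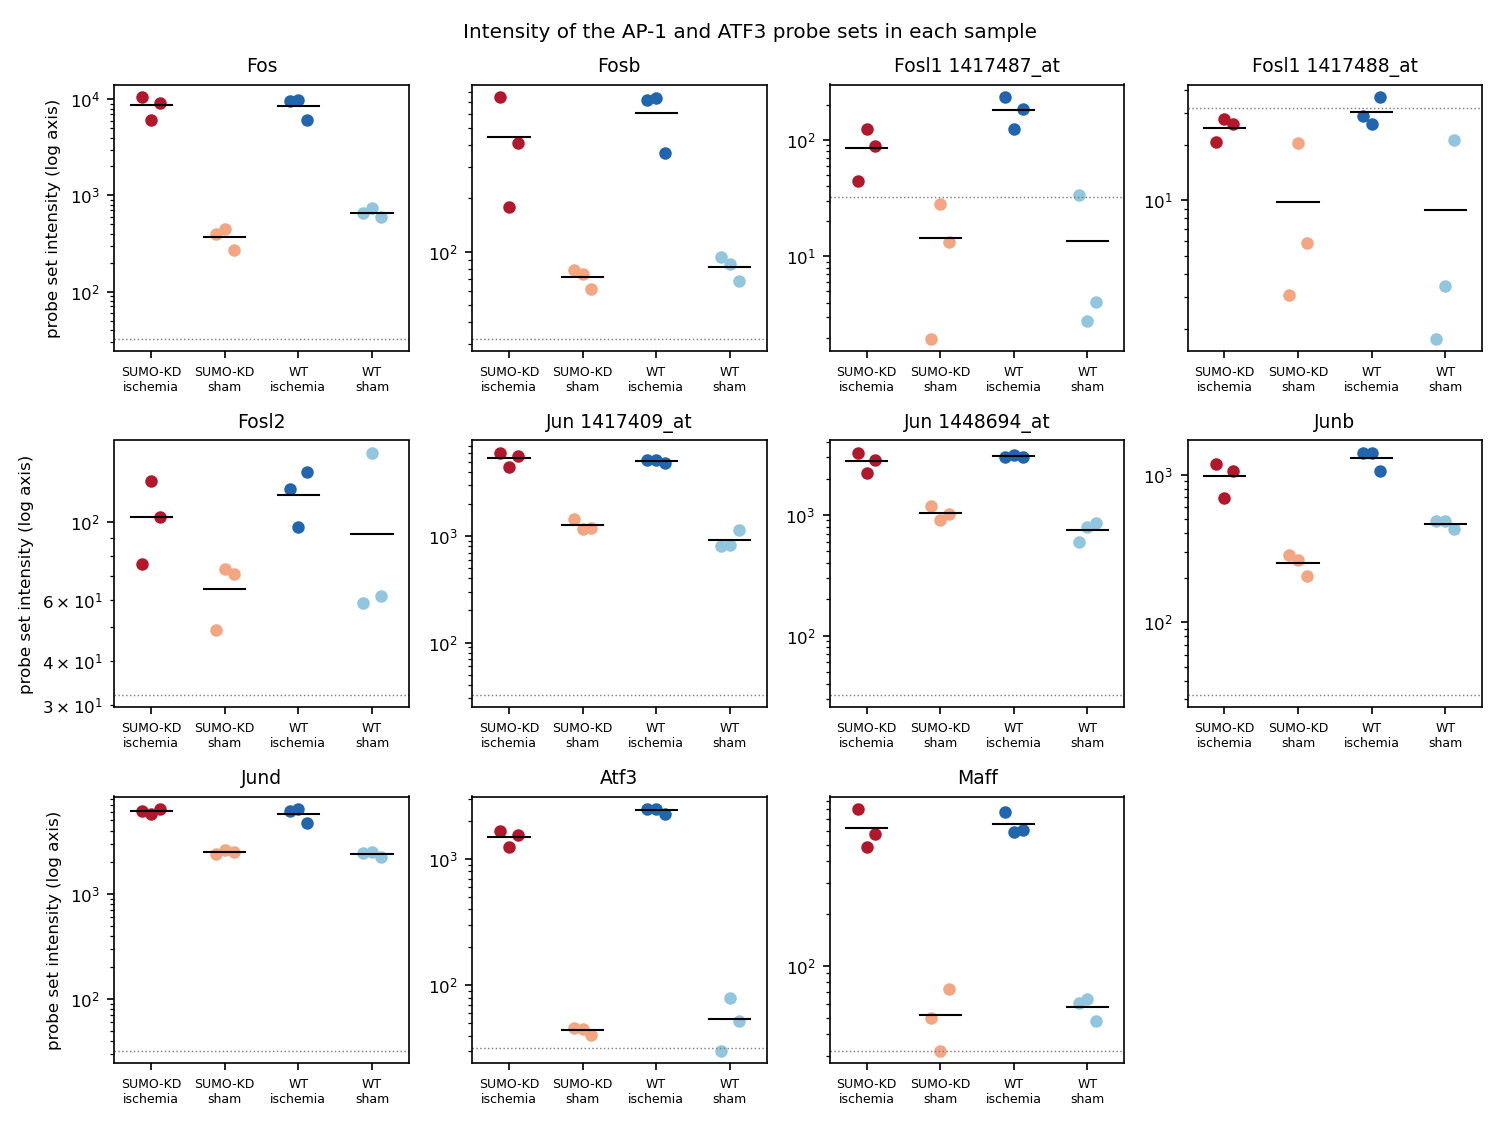
Intensity of each of the 11 probe sets in every sample (log axis, 1 dot per array, black bar at the group mean, dotted line at 32), by genotype and surgery. For Atf3, Fos, both Jun probe sets, Junb, Jund, Fosb and Maff every ischemia sample lies above every sham sample of the same genotype, while the samples of Fosl2 overlap in wild-type.

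Ischemia raised 8 of the 9 genes in both genotypes, and Fosl2 did not pass in either. In SUMO-KD 9 of 11 probe sets rose and 0 fell, where 5.2% of all probe sets rose and 3.2% fell (limma, adjusted p under 0.05 over 22626 probe sets). In wild-type 10 of 11 rose and 0 fell, where 8.84% of all rose and 6.51% fell. Their median log2 change was 1.80 in SUMO-KD and 2.26 in wild-type, against −0.011 and −0.021 over all probe sets. All 11 probe sets in SUMO-KD and 10 in wild-type had each ischemia sample above each sham sample, where 13.6% and 15.3% of all probe sets did. A log2 change here is on the log2(intensity + 32) scale, which understates the change of dim genes. Without SUMO-KD ischemia replicate 2 the SUMO-KD count was 8, the Fosl1 call being lost. Microglial markers moved with ischemia: 3 of 6 were lower in each genotype, Itgam had a mean below 32 in every group, and their summed intensity was 3019 to 3418 in SUMO-KD ischemia against 4123 to 4347 in SUMO-KD sham, and 3044 to 3297 in wild-type ischemia against 4216 to 4542 in wild-type sham samples. Endothelial markers moved too, with Slco1a4 (−1.14 in SUMO-KD, −1.51 in wild-type) and Tek (−0.96 and −0.79) lower and Cdh5 (0.84 and 0.91) higher in both. The dentate marker Lct was lower in both (−1.25 and −1.49). In wild-type alone Gfap, an astrocyte marker, passed as higher (0.77) and Wfs1 as lower (−0.60), and the dentate marker Prox1 as higher (1.03), while S100a9 passed as higher in SUMO-KD alone (1.70). S100a9 read 398.4 in SUMO-KD ischemia replicate 2 against 81.9 and 71.8 in the other replicates, and 71.8, 79.2 and 42.9 in wild-type ischemia samples. The SUMO-KD response minus the wild-type response passed for none of Gfap, Wfs1, Prox1 and S100a9 (adjusted p from 0.744 to 0.857). The part of these markers in the results was not tested, and in bulk tissue fewer cells of a type and less RNA per cell cannot be told apart.

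Atf3, a stress-induced repressor and activator that pairs with Jun proteins, had the largest log2 change of all probe sets in wild-type and the second largest in SUMO-KD. Its intensities were 1681, 1248 and 1559 in SUMO-KD ischemia against 46.0, 45.4 and 40.7 in SUMO-KD sham samples. In wild-type they were 2515, 2511 and 2271 in ischemia against 30.1, 78.7 and 52.6 in sham samples. The sham values are near the dim end of the arrays, and the ischemia samples stand far above them without overlap. The log2 change was 4.32 in SUMO-KD (SE 0.18, adjusted p = 2.75e-07) and 4.88 in wild-type (SE 0.18, adjusted p = 1.01e-07). As a ratio of mean intensities this was 34.0 in SUMO-KD and 45.2 in wild-type, ratios that rest on dim sham values. Over the 25 alternatives the wild-type log2 change ran from 4.42 to 5.60 and the SUMO-KD change from 3.84 to 5.08.

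Fos, the classic partner of Jun in AP-1, had the largest log2 change in SUMO-KD and ranked 7 in wild-type. Its intensities were 10656, 6067 and 9142 in SUMO-KD ischemia against 399.3, 448.2 and 270.7 in SUMO-KD sham samples. In wild-type they were 9483, 9796 and 6141 in ischemia against 655.5, 731.8 and 599.0 in sham samples. Fos was thus well above the dim end in sham tissue, and 1 ischemia sample of each genotype (SUMO-KD replicate 2 and wild-type replicate 3) was lower than the other ischemia samples. The log2 change was 4.41 in SUMO-KD (SE 0.24, adjusted p = 1.52e-06) and 3.59 in wild-type (SE 0.24, adjusted p = 4.69e-06).

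Fosb, whose product also pairs with Jun and persists in neurons as a truncated form, was more variable. Its intensities were 750.0, 178.4 and 408.2 in SUMO-KD ischemia against 78.7, 74.7 and 61.5 in SUMO-KD sham samples. In wild-type they were 715.3, 733.4 and 359.6 in ischemia against 93.5, 85.5 and 67.8 in sham samples. The spread among ischemia samples was wide, with a coefficient of variation of 64.6% in SUMO-KD and 34.97% in wild-type, yet the lowest ischemia sample lay above every sham sample. Fosb rose by 2.01 in SUMO-KD (SE 0.39, adjusted p = 0.00838) and by 2.42 in wild-type (SE 0.39, adjusted p = 0.00173). The probe set does not tell the full-length and truncated forms apart here.

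The Fos-related antigens Fosl1 (Fra-1) and Fosl2 (Fra-2) also pair with Jun and, lacking the activation domain of Fos, are known as weaker activators. The brighter Fosl1 probe set, 1417487_at, had intensities of 44.2, 122.6 and 88.2 in SUMO-KD ischemia against 1.94, 27.9 and 13.3 in SUMO-KD sham samples. In wild-type the same probe set had 234.2, 124.6 and 184.0 in ischemia against 33.9, 2.76 and 4.06 in sham samples. Sham values lay at or under the offset of 32 apart from wild-type sham replicate 1, and ischemia samples lay above it in both genotypes. Fosl1 rose by 1.31 in SUMO-KD (SE 0.32, adjusted p = 0.0281) and by 2.26 in wild-type (SE 0.32, adjusted p = 0.000885). The SUMO-KD call was lost without SUMO-KD ischemia replicate 2 (adjusted p = 0.119), SUMO-KD ischemia replicate 3 (adjusted p = 0.0885), SUMO-KD sham replicate 1 (adjusted p = 0.108) or SUMO-KD sham replicate 3 (adjusted p = 0.0761), and with 4 of the other alternatives, and its adjusted p ran from 0.0149 to 0.14 over 24 alternatives. The second Fosl1 probe set, 1417488_at, stayed below 37 on all 12 arrays. It had 20.7, 27.8 and 25.9 in SUMO-KD ischemia against 3.05, 20.6 and 5.83 in SUMO-KD sham samples, and 28.8, 25.9 and 36.7 in wild-type ischemia against 1.76, 3.43 and 21.3 in wild-type sham samples. It passed in wild-type (0.64, adjusted p = 0.0375) and not in SUMO-KD (0.46, adjusted p = 0.165). The wild-type call was lost when any of 6 arrays was left out, with adjusted p from 0.0534 without SUMO-KD ischemia replicate 3 to 0.137 without wild-type sham replicate 1. The others were wild-type sham replicate 2 (0.111) and wild-type ischemia replicates 1 (0.0812), 2 (0.0583) and 3 (0.115).

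Fosl2 was the one gene that passed in neither genotype. Its intensities were 76.0, 131.2 and 103.0 in SUMO-KD ischemia against 49.2, 73.3 and 71.1 in SUMO-KD sham samples. In wild-type they were 123.8, 96.7 and 138.5 in ischemia against 58.5, 157.7 and 61.5 in sham samples. Wild-type sham replicate 2 was above all other arrays, and the wild-type groups overlapped because of it, while the SUMO-KD groups did not overlap. The log2 change was 0.48 in SUMO-KD (95% interval −0.09 to 1.05, adjusted p = 0.326) and 0.36 in wild-type (95% interval −0.21 to 0.93, adjusted p = 0.414). Without wild-type sham replicate 2 the wild-type change was 0.71 and passed (adjusted p = 0.0307).

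The Jun proteins are the obligate part of the AP-1 dimer. Jun, the strongest activator of the 3, had intensities at probe set 1417409_at of 6081, 4434 and 5641 in SUMO-KD ischemia against 1442, 1161 and 1196 in SUMO-KD sham samples. In wild-type this probe set read 5147, 5209 and 4888 in ischemia against 807.5, 821.5 and 1147 in sham samples. Both of its probe sets separated ischemia from sham in both genotypes. The log2 change at 1417409_at was 2.06 in SUMO-KD (SE 0.15, adjusted p = 1.6e-05) and 2.43 in wild-type (SE 0.15, adjusted p = 3.16e-06). At 1448694_at, Jun read 3289, 2235 and 2875 in SUMO-KD ischemia against 1183, 901.2 and 1013 in SUMO-KD sham samples, and 3044, 3156 and 3005 in wild-type ischemia against 601.7, 791.8 and 863.6 in wild-type sham samples. There the change was 1.40 in SUMO-KD (adjusted p = 0.000312) and 2.00 in wild-type (adjusted p = 1.68e-05), so the probe sets differed in size but not in direction.

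Junb, which forms less active dimers and can restrain Jun, had intensities of 1173, 689.2 and 1056 in SUMO-KD ischemia against 286.0, 262.7 and 206.5 in SUMO-KD sham samples. In wild-type it had 1407, 1399 and 1062 in ischemia against 481.0, 482.9 and 426.3 in sham samples. Junb rose by 1.80 in SUMO-KD (SE 0.19, adjusted p = 0.000159) and by 1.41 in wild-type (SE 0.19, adjusted p = 0.000559). Jund, the member that is known for steady expression in resting cells, was already bright in sham tissue, with 2413, 2637 and 2491 in SUMO-KD and 2441, 2477 and 2244 in wild-type sham samples. After ischemia it had 6181, 5706 and 6465 in SUMO-KD and 6088, 6425 and 4672 in wild-type samples. Its log2 change was 1.27 in SUMO-KD (SE 0.12, adjusted p = 7.11e-05) and 1.24 in wild-type (SE 0.12, adjusted p = 5.49e-05), the smallest change among the genes that passed in wild-type by their brightest probe set. Its replicates were close in 3 of the groups, with a coefficient of variation of 6.3% in SUMO-KD ischemia, 4.5% in SUMO-KD sham and 5.3% in wild-type sham samples. In wild-type ischemia samples it was 16.2%, with replicate 3 the lowest.

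Maff, whose product as a homodimer occupies Maf sites without activating them, had intensities of 808.4, 487.6 and 578.7 in SUMO-KD ischemia against 49.6, 31.98 and 73.2 in SUMO-KD sham samples. In wild-type it had 773.6, 594.2 and 607.7 in ischemia against 60.4, 63.8 and 47.9 in sham samples. Ischemia and sham samples were far apart, and the ranges of the 2 genotypes overlapped after ischemia. Maff rose by 2.97 in SUMO-KD (SE 0.20, adjusted p = 8.5e-06) and by 2.94 in wild-type (SE 0.20, adjusted p = 5.52e-06).

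**Figure D2:**
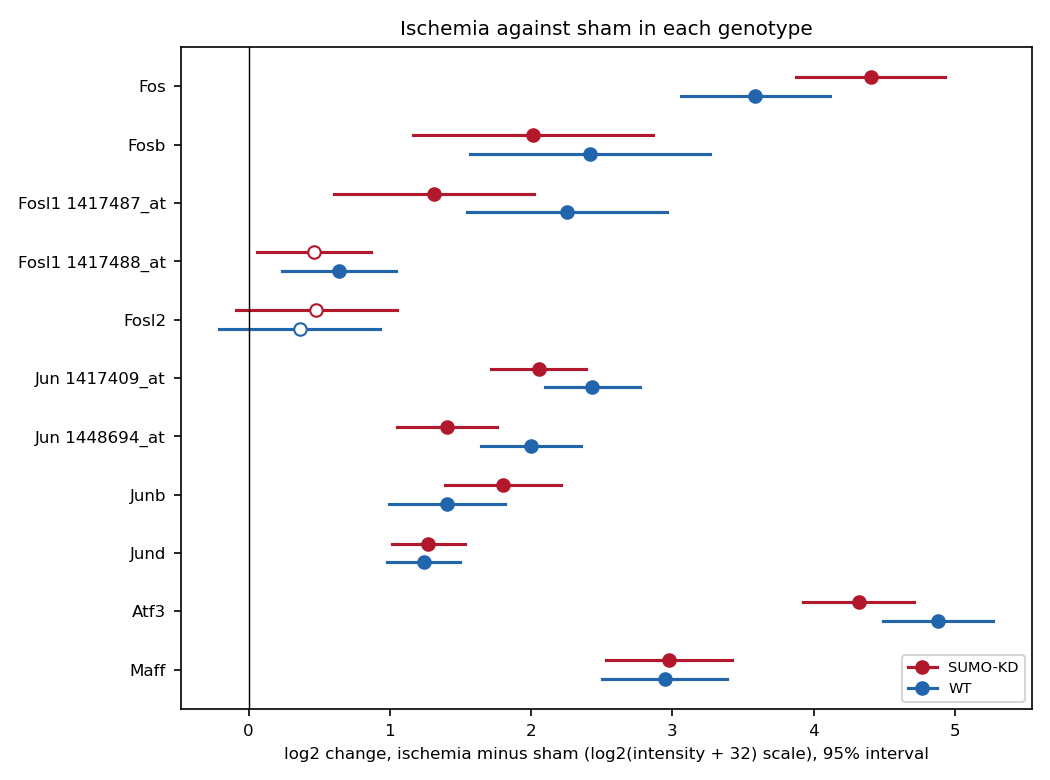
Log2 change with ischemia of each probe set in SUMO-KD (red) and wild-type (blue), with its 95% interval from the limma fit; filled dots passed at an adjusted p under 0.05. Atf3 reaches 4.32 in SUMO-KD and 4.88 in wild-type, Fos 4.41 and 3.59, and the intervals of Fosl2 include 0.

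The genotypes were compared within each surgery, to see whether SUMO knockdown altered the level of these factors. In limma's test 0 of 11 probe sets passed after ischemia, where 0.981% of all probe sets did, and 0 of 11 passed in sham, where 1.27% did. At an unadjusted p under 0.05 there were 3 after ischemia and 4 in sham, against 13.6% and 12.5% of all probe sets. After ischemia Atf3 had the smallest p. All 3 SUMO-KD ischemia samples, from 1248 to 1681, lay below all 3 wild-type ischemia samples, from 2271 to 2515. The log2 difference was −0.70 (SE 0.18, adjusted p = 0.106), and its adjusted p over the alternatives ran from 0.0395 to 0.359. It passed with an offset of 64 (0.0395), without wild-type sham replicate 1 (0.0479) and without wild-type sham replicate 2 (0.0461), and the difference stayed between −0.79 and −0.58 throughout. Fosl1 at 1417487_at was also lower without overlap (−0.89, adjusted p = 0.251). These were the 2 probe sets of the 11 that were lower without overlap, where 8.93% of all probe sets were. None was higher without overlap, where 9.72% of all were. For Fos, in contrast, the SUMO-KD and wild-type ischemia samples overlapped, with a difference of 0.017 (95% interval −0.51 to 0.54). Jund (0.11, 95% interval −0.15 to 0.36), Maff (−0.092, 95% interval −0.54 to 0.35) and Fosb (−0.54, 95% interval −1.39 to 0.31) overlapped too, and these intervals do not show that the genotypes were alike. The values of Fosb and Junb depended on single arrays. Without SUMO-KD ischemia replicate 2 the difference was −0.050 for Fosb and −0.20 for Junb, against −0.42 for Junb on all arrays (adjusted p = 0.357). With other single arrays left out it reached −0.997 for Fosb and −0.565 for Junb. The CA1 marker sums given above overlapped between the genotypes after ischemia.

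In sham tissue Junb and Fos were lower and Jun was higher in SUMO-KD samples, each without overlap between the groups, though none passed. Junb had 206.5 to 286.0 in SUMO-KD sham against 426.3 to 482.9 in wild-type sham samples, a log2 difference of −0.81 (SE 0.19, adjusted p = 0.0678). It passed without SUMO-KD ischemia replicate 2 (adjusted p = 0.024) and under 4 of the other alternatives, and its adjusted p ran from 0.0139 to 0.259 over 25 of them. Fos had 270.7 to 448.2 against 599.0 to 731.8, a difference of −0.80 (SE 0.24, adjusted p = 0.165). Jun differed by 0.45 at 1417409_at (adjusted p = 0.232) and by 0.45 at 1448694_at (adjusted p = 0.268). Groups without overlap were found for 2 probe sets lower and 2 higher of the 11, where 9.09% and 9.6% of all probe sets showed this. The CA1 pyramidal markers moved the same way as Junb and Fos in this comparison, and all 5 lay below wild-type without overlap. Of these, 2 passed as lower in SUMO-KD sham, Wfs1 (−0.87, adjusted p = 0.0212) and Man1a (−0.85, adjusted p = 0.0438). Pou3f1 (−0.88, adjusted p = 0.148), Itpka (−0.69, adjusted p = 0.0931) and Camk2a (−0.48, adjusted p = 0.243) did not pass. The summed intensity of the 5 was 4177 to 5121 in SUMO-KD against 7089 to 9544 in wild-type sham samples. Of 6 astrocyte markers 1, Aqp4, passed as higher in SUMO-KD sham, the way of Jun (0.52, adjusted p = 0.0361). Gfap (0.59, adjusted p = 0.0611) and Slc1a3 (0.42, adjusted p = 0.21) lay above wild-type without overlap. The others, Gja1 (0.089), Slc1a2 (0.039) and Aldh1l1 (−0.050), overlapped and did not pass. The part of these markers in the differences of Junb, Fos and Jun was not tested.

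**Figure D3:**
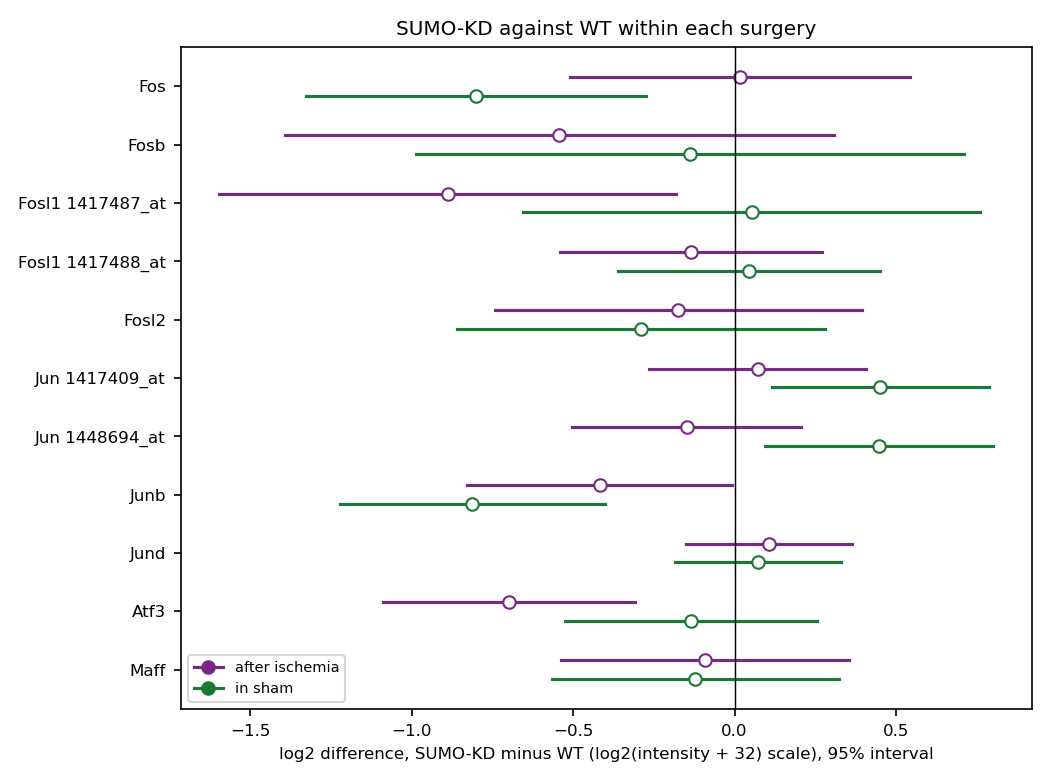
Log2 difference of SUMO-KD minus wild-type for each probe set after ischemia (purple) and in sham (green), with its 95% interval; open dots did not pass, which holds for every probe set. The intervals of Atf3 after ischemia (−0.70) and of Junb (−0.81) and Fos (−0.80) in sham lie below 0, and those of Jun in sham above it.

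Whether the genotypes responded differently to ischemia was tested as the SUMO-KD response minus the wild-type response. It passed for 0 of the 11 probe sets by limma, where 2 of all 22626, or 0.00884%, passed. Of the 11, 3 had an unadjusted p under 0.05, against 5.93% of all. Those were Fos with a larger response in SUMO-KD (0.82, 95% interval 0.07 to 1.56, adjusted p = 0.83), Jun at 1448694_at with a smaller one (−0.60, 95% interval −1.10 to −0.09, adjusted p = 0.802) and Atf3 with a smaller one (−0.56, 95% interval −1.12 to −0.01, adjusted p = 0.838). For Fos the genotypes overlapped after ischemia and did not overlap in sham. Jund (0.032, 95% interval −0.33 to 0.40) and Maff (0.030, 95% interval −0.60 to 0.66) had the smallest differences of response.

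The members differed in how much they varied among arrays of a group. Over the brightest probe set of each gene, SUMO-KD ischemia replicate 2 lay below its group mean for 7 of 9 genes, by a mean of −0.23 on the log2 scale, and wild-type ischemia replicate 3 lay below for 7 of 9, by a mean of −0.18. Over all probe sets the median deviation of these arrays was 0.0086 and 0.038. Fosb deviated furthest in both, followed by Fos, whereas Fosl1 was above its group mean in both arrays and Fosl2 as well. In SUMO-KD ischemia replicate 2 the stress genes Chac1 (1558, against 695 and 1222 in the other replicates) and Ddit3 (1600, against 831.2 and 1209) were the highest of their group. They were also highest in wild-type ischemia replicate 3 (Chac1 1671, against 1497 and 1275, and Ddit3 1452, against 1448 and 1250). Atf4 (3338, against 2903 and 3728) and Trib3 (96.17, against 46 and 96.28), named after their values were seen, were not highest in SUMO-KD ischemia replicate 2. In wild-type ischemia replicate 3 Atf4 was highest (3578, against 3145 and 3321) and Trib3 was not (106.3, against 119.8 and 65.51). With both arrays left out, 9 of 11 probe sets passed for ischemia in wild-type and 8 in SUMO-KD. Some markers of other cells went with this deviation in both arrays. Folr1 read 1034 in SUMO-KD ischemia replicate 2, against 231.6 and 561.9 in the other replicates, and 1247 in wild-type ischemia replicate 3, against 73.45 and 640.9, and Kcne2, Otx2 and Kl were also highest of their group there. Ttr was highest in neither array (21789, against 20180 and 24136, and 16204, against 14655 and 16283). The CA1 markers Itpka (897.6 and 1218), Pou3f1 (866.1 and 795.6), Wfs1 (989.3 and 1240) and Camk2a (35.6 and 43.9) were lowest of their group in these arrays. Man1a was lowest in wild-type ischemia replicate 3 (1067). In SUMO-KD ischemia replicate 2 it read 1208, between the other replicates (1220 and 1049). The high 18S control and S100a8 were seen in SUMO-KD ischemia replicate 2. The part of these markers in the deviation was not tested.

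**Figure D4:**
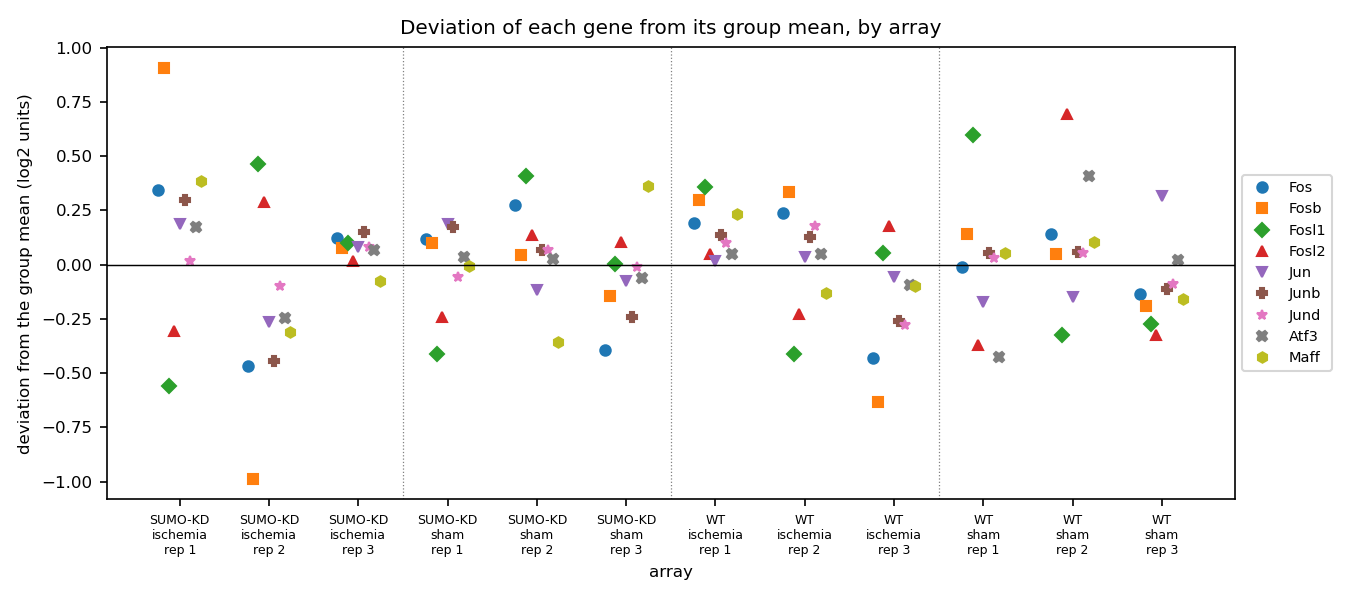
Deviation of each of the 9 genes (brightest probe set, one symbol per gene) from its group mean on the log2(intensity + 32) scale, by array. SUMO-KD ischemia replicate 2 and wild-type ischemia replicate 3 lie mostly below 0, each for 7 of 9 genes.

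Among 20369 probe sets of other genes, those with the most similar profile over the 12 arrays were found by the root mean square difference of log2 values, after subtracting each probe set's mean over the 6 sham arrays. For Fos they were Hspa1b (0.26), Hspa1a (0.33) and Egr2 (0.44). Hspa1a and Hspa1b encode nearly identical inducible HSP70 chaperones whose probe sets may share signal, and Egr2 encodes an immediate early zinc finger factor. For Fosb they were Zfp36 (0.36), Socs3 (0.39) and Dnajb1 (0.40). Junb was nearest to the orphan nuclear receptor gene Nr4a1 (0.22), the ERK phosphatase gene Dusp6 (0.29) and Slc15a3 (0.31). The nearest to Atf3 were farther off: Hspa1b (0.67), Hspa1a (0.70) and Ccn1 (0.71). This measure counts the size of a change as well as its pattern. Atf3 ranked 1 in wild-type and 2 in SUMO-KD by size of change, so its distance does not show a pattern of its own. These are descriptions of 12 arrays that share the ischemia difference.

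Other bZIP factors that can pair with these members were counted by the same test. Of 21 measured genes (of 23 listed), counted by their brightest probe set, 8 rose and 0 fell in SUMO-KD and 9 rose and 1 fell in wild-type, with a median log2 change of 0.42 and 0.34. Over all 39 probe sets of these genes 12 rose and 0 fell in SUMO-KD, and 14 rose and 1 fell in wild-type. Of all probe sets tested 5.2% rose and 3.2% fell in SUMO-KD, and 8.84% rose and 6.51% fell in wild-type. Bach1, a repressor that pairs with small Maf proteins, had an intensity of 820 ± 78.4 in SUMO-KD ischemia against 431 ± 42.5 in SUMO-KD sham samples, and 1107 ± 42.9 in wild-type ischemia against 343 ± 28.3 in wild-type sham samples (SD, n = 3 each). It rose by 0.88 in SUMO-KD (adjusted p = 0.000345) and by 1.60 in wild-type (adjusted p = 3.4e-06). Cebpb, an inflammation and stress factor, rose by 1.27 in SUMO-KD and 1.41 in wild-type, and Cebpd by 0.96 and 1.59. Ddit3, which encodes the ER stress factor CHOP, rose by 1.11 in SUMO-KD and 1.32 in wild-type, and the small Maf gene Mafk by 1.04 and 1.02. Jdp2, which encodes a repressor that binds Jun, rose by 1.13 in SUMO-KD and 0.71 in wild-type. The fall in wild-type was of Crem (−0.55, adjusted p = 0.0173), named after its value was seen, and it was lost without wild-type sham replicate 1, wild-type sham replicate 3 or wild-type ischemia replicate 1.

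Between genotypes, Cebpb was lower in SUMO-KD after ischemia (1724 ± 131 against 2711 ± 193 in wild-type, −0.64, adjusted p = 0.0158) and in sham (699 ± 75.9 against 998 ± 72.5, −0.50, adjusted p = 0.0467). In sham, Jdp2 (−0.66, adjusted p = 0.0476) and Batf3, a partner of Jun in immune cells that was named here after its value was seen (−0.83, adjusted p = 0.043), were lower as well. The 3 sham calls in this list, where 1.27% of all probe sets passed, became 0 or 1 when any of the 12 arrays was left out. They became 0 with an offset of 16, 1 or none. The Cebpb call after ischemia was the 1 of its list, and that count became 0 without SUMO-KD ischemia replicate 1 or 3 or wild-type ischemia replicate 1 or 3, and 2 without SUMO-KD sham replicate 1.

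Upstream of AP-1, MAP kinases phosphorylate Jun and the ETS factors that, with serum response factor (SRF), switch on Fos. Of 22 measured genes (of 27 listed) 4 rose and 1 fell in SUMO-KD, and 6 rose and 1 fell in wild-type, with a median log2 change of 0.17 and 0.18. Over all 48 probe sets of these genes 7 rose and 2 fell in SUMO-KD, where 5.2% and 3.2% of all probe sets did. In wild-type 9 rose and 3 fell, where 8.84% and 6.51% of all did. Srf had 1062 ± 73.2 in SUMO-KD ischemia against 495 ± 47.3 in SUMO-KD sham samples, and 1445 ± 51.0 in wild-type ischemia against 731 ± 29.6 in wild-type sham samples. It rose by 1.06 in SUMO-KD (adjusted p = 4.21e-05) and by 0.95 in wild-type (adjusted p = 5.88e-05). The p38 activator Map2k3 rose by 0.77 in SUMO-KD and 1.11 in wild-type. Mapkapk2, a kinase downstream of p38, rose in wild-type (1.13, adjusted p = 0.000213) and had a change of 0.45 in SUMO-KD (adjusted p = 0.0577), with a difference of responses of −0.68 (adjusted p = 0.595). The gene that fell in both genotypes was Elk1, an ETS factor named after its value was seen, which fell by 0.83 in SUMO-KD and by 0.50 in wild-type. Between genotypes, Srf was lower in SUMO-KD sham (−0.54, adjusted p = 0.0159) and Mapkapk2 in SUMO-KD ischemia samples (−0.69, adjusted p = 0.0333). The 4 SUMO-KD rises became 2 without SUMO-KD sham replicate 2 or 3 or SUMO-KD ischemia replicate 2 or 3. The Elk1 call in wild-type was lost without wild-type sham replicate 3 or wild-type ischemia replicate 1 or 2, the Srf sham call without SUMO-KD sham replicate 2 or 3 or wild-type sham replicate 1. The count of 1 that Mapkapk2 made after ischemia became 0 without SUMO-KD ischemia replicate 1 or 3, SUMO-KD sham replicate 3, wild-type ischemia replicate 1 or 3 or wild-type sham replicate 3, and 2 without SUMO-KD sham replicate 1. That count was also 0 with an offset of 16, 1 or none, with the replicate block and with only the groups compared. With an offset of 64, 1 probe set per gene, the dim filter, trend and robust or array weights it was 2.

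Genes known from other settings as targets of AP-1 or ATF3 were counted the same way. Of 26 measured (of 28 listed) 10 rose and 0 fell in each genotype, with a median log2 change of 0.25 in SUMO-KD and 0.32 in wild-type. Over all 40 probe sets of these genes 14 rose and 0 fell in SUMO-KD, where 5.2% and 3.2% of all probe sets did. In wild-type 15 rose and 0 fell, where 8.84% and 6.51% of all did. Chac1, a glutathione-degrading enzyme gene, had 1158 ± 435 in SUMO-KD ischemia against 150 ± 31.8 in SUMO-KD sham samples, and 1481 ± 199 in wild-type ischemia against 167 ± 26.5 in wild-type sham samples. It rose by 2.65 in SUMO-KD and 2.93 in wild-type. Hmox1 (heme oxygenase 1) rose by 2.33 in SUMO-KD and 2.65 in wild-type, Hbegf, an EGF receptor ligand gene, by 1.60 and 2.22, the hyaluronan receptor gene Cd44 by 1.47 and 1.97, and the chemokine gene Ccl2 by 1.22 and 1.55. Timp1, a metalloproteinase inhibitor gene, rose in wild-type (1.35, adjusted p = 0.0158) and had a change of 0.88 in SUMO-KD (adjusted p = 0.129), with a difference of responses of −0.47 (adjusted p = 0.947). Gap43, a growth cone protein gene named after its value was seen, passed for ischemia in neither genotype. It was higher in SUMO-KD samples after ischemia (1067 ± 22.4 against 513 ± 66.3 in wild-type, 1.02, adjusted p = 0.00165) and in sham (1145 ± 53.9 against 630 ± 74.6, 0.84, adjusted p = 0.00305). The 10 wild-type rises became 6 without wild-type sham replicate 1, and the 1 genotype call after ischemia became 2 without wild-type sham replicate 2. Whether AP-1 or ATF3 acted on any of these genes was not measured.

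**Figure D5:**
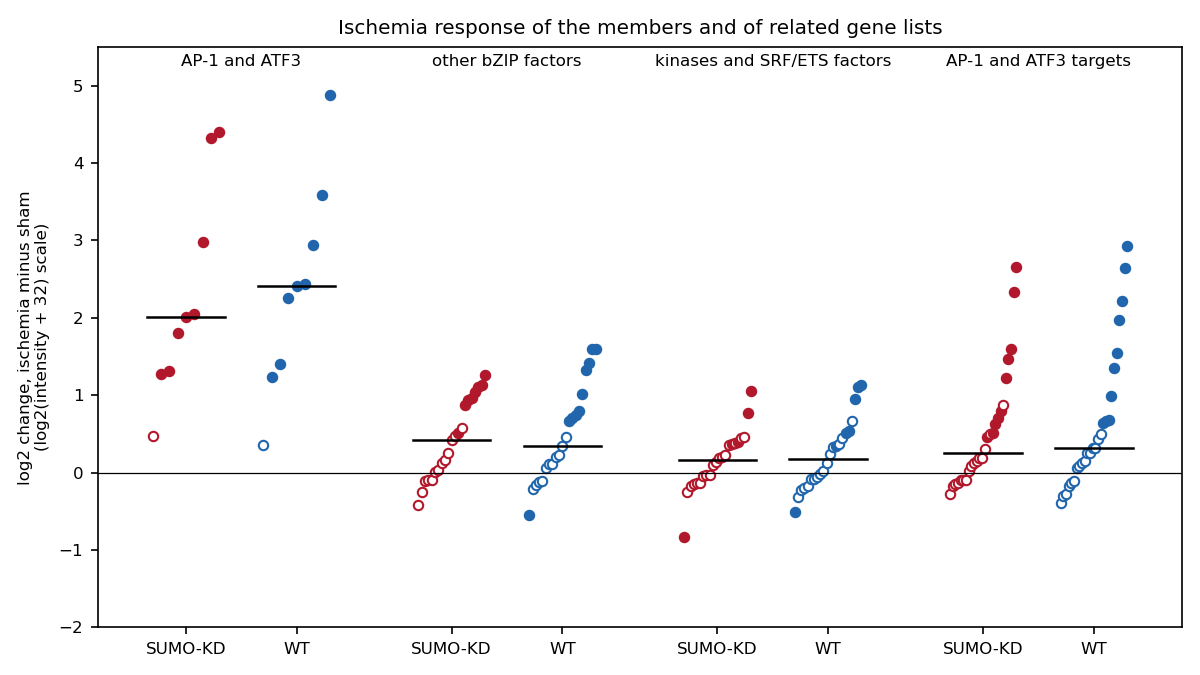
Log2 change with ischemia of the brightest probe set of each gene in SUMO-KD (red) and wild-type (blue) for the 9 members and for 3 lists of related genes; filled dots passed at an adjusted p under 0.05 and black bars are medians. The medians of the lists lie between 0.17 and 0.42, and those of the members near 2.01 in SUMO-KD and 2.42 in wild-type.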

How the data were processed

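RNA from dissected CA1 was measured on 12 Affymetrix arrays. The authors deposited a linear intensity for each probe set on every array. The submitters' processing notes list Partek 6.6 and RMA, yet the deposited intensity values are not on the log2 scale that RMA gives, and the sources used here do not name the step behind them. Their mean after trimming 2% at each end was 500.2 on all arrays. No detection call was used, and precision is limited by the number of arrays. From these, log2(intensity + 32) was fitted with limma 3.58.1 in R 4.3.3 (4 group means, lmFit and eBayes). Affymetrix control probe sets (64 of 22690) were left out. Tests were two-sided with Benjamini-Hochberg adjustment over 22626 probe sets, called at an adjusted p under 0.05. The fit was tested on simulated data.

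Members, lists and the offset were chosen with earlier results of these data known. The rule for naming took all member probe sets, genes of the bZIP, upstream and target lists called with a log2 change of at least 1 with ischemia, Sumo3, and the 3 nearest profiles of Fos, Fosb, Junb and Atf3. Other genes of these 3 lists are marked where they are named in the results. Cell type markers were named after their values were seen. Planned protein motifs were not run. Alternatives were other offsets, 1 probe set per gene, a filter on dim probe sets, quantile normalization, median centring, the replicate block, the compared groups alone, other eBayes settings, array weights and omission of each array. The labels call the samples biological replicates and give no batch, so p-values measure the spread between these pools.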

Additional observations from a re-analysis of the deposited data

How the results depend on the processing

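Each member probe set was recomputed with other offsets (16, 64, 1 and none), 1 probe set per gene, a filter on dim probe sets, quantile normalization, median centring, the replicate block, eBayes with trend and robust, array weights, a fit on only the groups compared and each of the 12 arrays left out. The setting with no offset, and the one leaving out SUMO-KD ischemia replicate 2 and wild-type ischemia replicate 3 together, were chosen after seeing the data. With ischemia the number of the 11 probe sets called lay between 8 and 9 in SUMO-KD and between 8 and 10 in wild-type, and 0 changed direction. For SUMO-KD against wild-type in sham the number was 1 (Junb) with the dim filter, 1 with trend and robust, 1 with array weights and 1 without both arrays together, and it ran from 0 to 1 with single arrays left out. After ischemia it was 1 (Atf3) with an offset of 64 and ran from 0 to 1 with single arrays left out. The difference of responses passed for 0 probe sets under each alternative that could give it.

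Same-numbered samples correlated in their deviations between −0.176 and 0.295 (median 0.0768), with 7 of 18 pairs over 0.1. Differently numbered samples ran from −0.395 to 0.345 (median −0.0306), with 5 of 36 pairs over 0.1. The same-numbered samples were thus somewhat more alike, and the ranges overlapped. The labels give no batch, and the main fit did not use the numbers. Whether same-numbered samples shared a step was not tested. With the replicate block the SUMO-KD ischemia count was 8, as Fosl1 at 1417487_at had an adjusted p of 0.0518.

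Of 1344 member values, 40 changed sign, in 14 results of which 0 had an unadjusted p under 0.05. The cause was not tested. In sham, with single arrays left out, SUMO-KD minus wild-type ran from −0.151 to 0.351 for Fosl1 at 1417487_at, from −0.134 to 0.252 for Fosl1 at 1417488_at, from −0.475 to 0.059 for Fosl2, from −0.349 to 0.069 for Atf3 and from −0.303 to 0.057 for Maff. After ischemia it ran from −0.199 to 0.250 for Fos, from −0.022 to 0.204 for Jun at 1417409_at, from −0.272 to 0.0033 for Jun at 1448694_at, from −0.034 to 0.195 for Jund and from −0.284 to 0.063 for Maff. The difference of responses ran from −0.859 to 0.089 for Fosb, from −0.233 to 0.301 for Fosl2, from −0.108 to 0.121 for Jund and from −0.162 to 0.211 for Maff. With array weights the values that changed sign were −0.122 for Fosl1 at 1417487_at and 0.030 for Atf3 in sham, −0.054 for Fos after ischemia, and −0.028 for Fosl2, −0.012 for Jund and −0.016 for Maff in the difference of responses. With quantile normalization they were −0.034 for Fos after ischemia, and −0.010 for Jund and −0.020 for Maff in the difference of responses. Without both arrays together they were 0.013 for Maff after ischemia and −0.059 for Jund in the difference of responses, and with an offset of 64 the difference of responses was −0.0032 for Maff.

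Fosl1 lies near the dim end in sham, so its changes depend on the offset: at 1417487_at the SUMO-KD change ran from 0.90 to 3.12 over the alternatives.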

Other observations

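Of 69 genes in the 3 related lists, 14 were lower in each SUMO-KD ischemia sample than in each wild-type ischemia sample, and 12 of these did not pass limma's test. Without overlap in the other direction were 5, of which 4 did not pass. Over all probe sets 8.93% were lower and 9.72% higher without overlap. The genes named here were picked after their values were seen. Among those lower, the log2 difference was −0.43 for Srf (adjusted p = 0.0506), −0.72 for Batf3 (adjusted p = 0.0853), −0.42 for Bach1 (adjusted p = 0.0939), −0.40 for Ccl2 (adjusted p = 0.226) and −0.29 for Hbegf (adjusted p = 0.259). Bach1 (0.30, adjusted p = 0.239) and Hbegf (0.34, adjusted p = 0.196) were higher in each SUMO-KD sham sample than in each wild-type sham sample, and did not pass either. The SUMO-KD response minus the wild-type response of Bach1 was −0.72 (adjusted p = 0.354). In the other direction Penk, the proenkephalin gene, differed by 1.08 after ischemia (adjusted p = 0.0742), Mapk14 by 0.26 (adjusted p = 0.299), Atf6 by 0.19 (adjusted p = 0.415) and Mafg by 0.19 (adjusted p = 0.33).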
